A study of Mus musculus with 4 samples.

Results

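The transcription machinery described here comprises subunits of TFIID outside the paralogue pairs around Taf7l, the general transcription factors TFIIA to TFIIH, RNA polymerase II and Mediator, with the TAF relatives of the coactivator SAGA. Of 58 listed genes, 56 had a probe set assigned to a single gene symbol, out of 18193 genes so covered on the array. Polr2k was dropped because its probe set names 2 genes, and Gtf2h2 matched no probe set by symbol. Each gene was read first at its brightest probe set by mean signal, called the leading probe set. The leading probe set passed the filter on low signals (a mean of at least 45.8, the median over all mouse probe sets) for 53 members, of 12241 genes with a kept probe set. Taf3 fell just under that level at 45.7, Med14 had 38.7 and Taf8 16.8, while the dimmest member kept was Taf15 at 73.6.

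Testis RNA was hybridised to Affymetrix arrays, 2 of wild type and 2 of Taf7l knockout mice. All were C57BL/6J males of 8 weeks, and the series calls the wild type ones littermates of the mutants. How the mutant allele was built is not stated in the labels. The second knockout array is replicate 2 by title and replicate 1 by description, so it is open to doubt that each knockout array had its own animal. The p-values therefore measure spread that may be purely technical.

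Transcription by RNA polymerase II starts with TFIID, a complex of the TATA-binding protein and its associated factors (TAFs) that recognises the core promoter. TFIIA and TFIIB join it, TFIIF escorts the polymerase, and TFIIE recruits TFIIH, which opens the DNA and phosphorylates the polymerase tail. Mediator relays signals from activators to this assembly. Male germ cells express alternative forms of several of these factors, and Taf7l, an X-linked relative of Taf7, is among them.

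The promoters of 4 members that carry the largest or the only called differences are shown because the machinery assembles on such sequences. They are the 150 bases before the annotated start, from RefSeq on build GRCm38.p6. That of Gtf2f2 lies at chr14:76010866-76011015 on the minus strand, that of Polr2i at chr7:30231924-30232073 on the plus strand, that of Taf5 at chr19:47067598-47067747 on the plus strand and that of Polr2a at chr11:69758634-69758783 on the minus strand. They read 5′ to 3′ along the gene, and capitals mark TATAAA and GGGCGG or its reverse complement CCGCCC.
Gtf2f2: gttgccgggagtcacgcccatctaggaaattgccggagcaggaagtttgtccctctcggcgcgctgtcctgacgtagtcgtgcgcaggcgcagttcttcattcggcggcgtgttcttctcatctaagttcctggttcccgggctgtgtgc
Polr2i: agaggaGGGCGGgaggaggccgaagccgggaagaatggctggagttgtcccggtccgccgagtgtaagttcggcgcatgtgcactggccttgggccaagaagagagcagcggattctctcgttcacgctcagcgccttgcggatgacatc
Taf5: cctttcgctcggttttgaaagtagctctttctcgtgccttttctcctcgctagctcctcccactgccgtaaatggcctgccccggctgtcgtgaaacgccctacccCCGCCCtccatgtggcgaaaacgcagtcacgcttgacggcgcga
Polr2a: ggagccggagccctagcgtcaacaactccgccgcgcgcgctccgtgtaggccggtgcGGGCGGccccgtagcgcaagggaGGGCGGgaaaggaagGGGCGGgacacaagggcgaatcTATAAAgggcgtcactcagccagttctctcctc
Polr2a was the only member of these 4 with TATAAA in the bases shown, 33 to 28 bases before the start. Among all members with a RefSeq promoter (48 genes, 55 windows), only Polr2a and Taf13 had TATAAA on the gene's strand within 40 to 20 bases before the start, which is 3.64% of windows against 1.91% of all 32851 windows in the table. Searched on both strands over 250 bases before the start, TATAAA was in 16.4% of member windows (9 genes, Taf5 among them) and 12.4% of all. In the same search GGGCGG was in 63.6% of member windows and 32.7% of all, and CCGGAAG in 25.5% and 6.91%. CCAAT was in 38.2% and 33.8%, and TGACGTCA in 5.45% and 1.55%. Each motif was counted on its own, whether or not its match overlapped that of another. The shares describe the windows, which in the whole table include those of genes that code for no protein.

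Taf7l had 829 and 818 in wild type against 80.6 and 72.5 in the knockout (limma adjusted p = 0.00334), and whether its probe set lies in deleted sequence is not stated in the labels. Of the listed markers of testis and neighbouring cells, the Leydig gene Cyp17a1 alone passed the limma test (higher in the knockout, adjusted p = 0.0496), and the marker sums are given as a description. Summed signals of 8 spermatid markers (7 lower in the knockout) were 435218 and 422619 in wild type and 405773 and 393624 in the knockout, and those of 8 spermatocyte markers (6 lower) were 161319 and 158140 against 151070 and 150293. Of the latter only 3 were lower after quantile normalization. The sums for 7 Sertoli markers (6 higher) were 59524 and 57894 against 74038 and 71104, and those for 4 Leydig markers (4 higher) 16079 and 15805 against 19892 and 20236. Bright genes carry most of these 2 sums, such as Clu (35026 and 32203 against 43413 and 37656) and Cyp17a1 (12131 and 11852 against 15226 and 15105). The Sertoli genes Sox9 and Wt1 had differences of 0.04 and 0.07 and Gata4 −0.20, all with overlapping signals. Macrophage markers were higher at 6 of 6, spermatogonial ones at 4 of 6 and peritubular myoid ones at 3 of 4. None of 4 endothelial markers had a kept leading probe set, nor did the Sertoli gene Amh or the Leydig gene Insl3. Genes without a probe set of 1 symbol and genes under the filter were not told apart here. Adipocyte markers summed to 844 and 3968 in wild type and 945 and 1653 in the knockout, and 2 epididymis markers to 114 and 263 against 116 and 120. Wild type replicate 2 stood apart in both sums, but not at every gene. The adipocyte gene Adipoq had 450 and 558 against 293 and 368. Of the epididymis markers, Spink8 had 17.3 and 150 against 10.1 and 12.7, and Defb15 had 96.7 and 113 against 106 and 107. For the actin control, the signal at the 3′ end over that at the 5′ end, which rises as RNA degrades, was 2.09 and 2.0 in wild type and 2.42 and 2.18 in the knockout. The same ratio for the Gapdh control went the other way, at 1.04 and 0.99 in wild type and 0.927 and 0.938 in the knockout. The part of these values in the members' differences was not tested, and in whole testis fewer cells of a type and less RNA per cell cannot be told apart.

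Few members of the machinery passed the test between genotypes. Of 53 measured members, 36 had a lower and 17 a higher mean log2 signal in the knockout, with differences from −0.74 to 0.22 and a median of −0.11. The median over all 22519 kept probe sets was −0.05, and 60.0% of them were lower. By limma, 2 members passed an adjusted p under 0.05, and both fell: Gtf2f2, the small subunit of TFIIF, and Polr2i, a zinc-binding subunit of the polymerase. That is 3.77% of members, where 1.39% of all kept probe sets were called, 0.941% as lower and 0.444% as higher. An unadjusted limma p under 0.05 was found at 13 of the 53 members, against 24.7% of all kept probe sets. The share called over all kept probe sets rose with mean signal, from 0.5% under 100 to 2.29% between 1000 and 3000 and 2.35% at 3000 or more. Gtf2f2 had a mean signal of 2918 and Polr2i of 3919. The signals did not overlap between genotypes at 35 members (66.0%), 27 of them lower and 8 higher, against 55.0% of all kept probe sets, 36.3% lower and 18.7% higher. At 35 members the difference was under 0.2 in size, and apart from Taf15 their 95% intervals lay within −0.44 and 0.55.

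**Figure D1:**
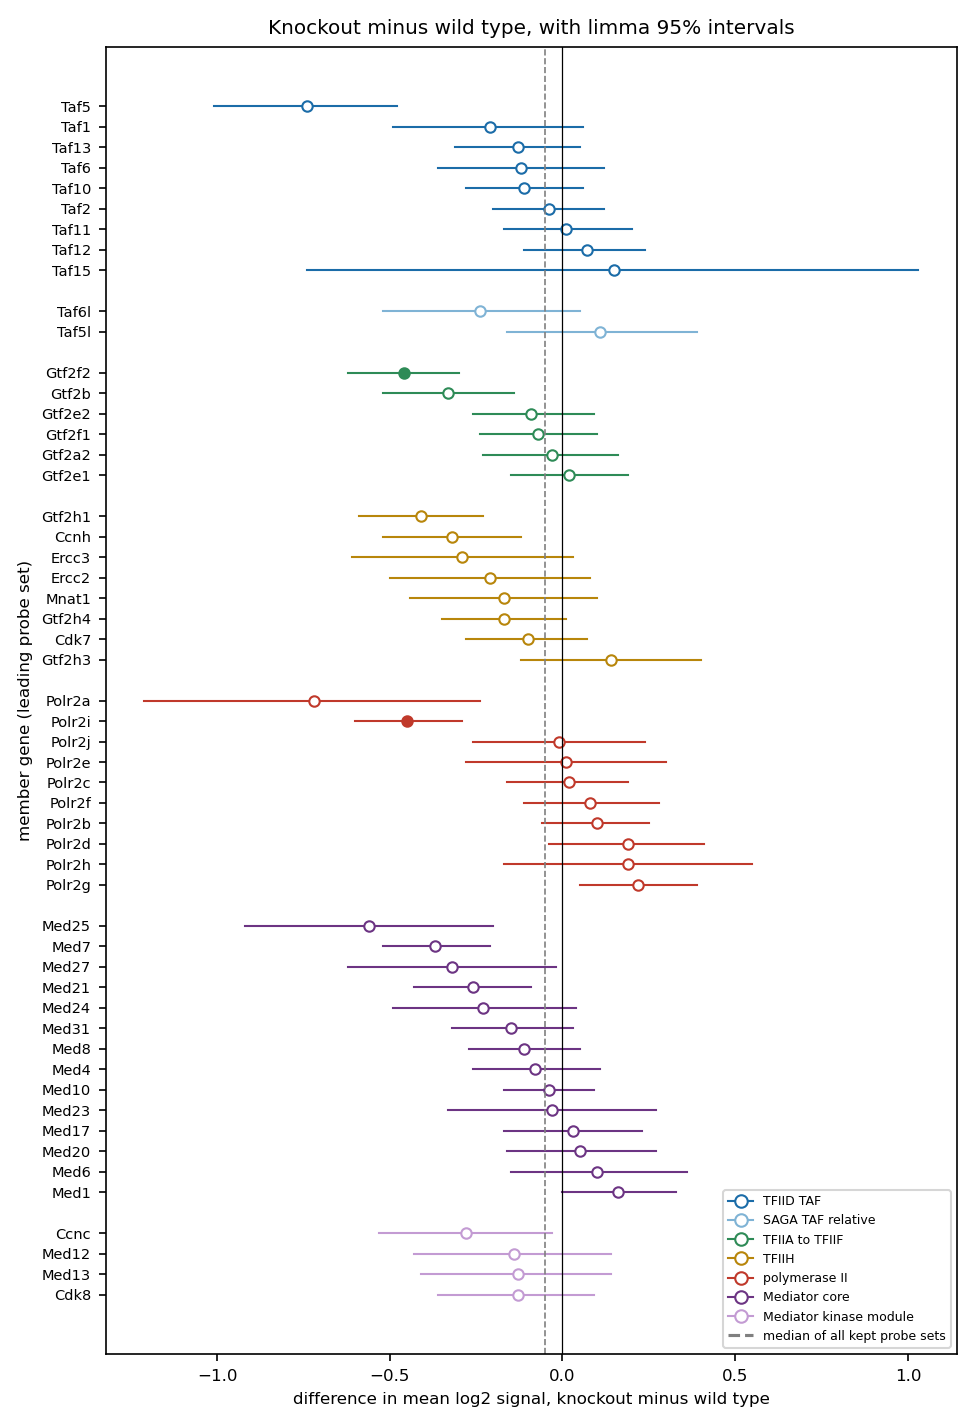
Difference in mean log2 signal between knockout and wild type (horizontal axis) for the leading probe set of 53 members, coloured by role, with limma 95% intervals; filled points were called. Gtf2f2 and Polr2i are the called members, Taf5 at −0.74 and Polr2a at −0.72 lie farthest to the left, and the dashed line is the median of all kept probe sets at −0.05.

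The direction of the list changed under quantile normalization and not under median centring. The knockout arrays were lower mainly among bright probe sets: all kept probe sets between 1000 and 3000 in mean signal had a median difference of −0.12, and those under 100 had 0.00. Of the 53 members, 26 had a mean signal of 1000 or more. In the class from 1000 to 3000 the 18 members had a median of −0.06, and in the class of 3000 or more the 8 members had −0.10 where all probe sets had −0.11. In the class from 100 to 300 the 7 members had −0.21 against −0.01 for all, and in that from 300 to 1000 the 19 members had −0.13 against −0.06. After quantile normalization the median of members was 0.00, with 25 lower and 28 higher. All kept probe sets then had a median of 0.00 as well, with 50.9% lower. After median centring 36 members were lower and 17 higher, with a median of −0.12.

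**Figure D2:**
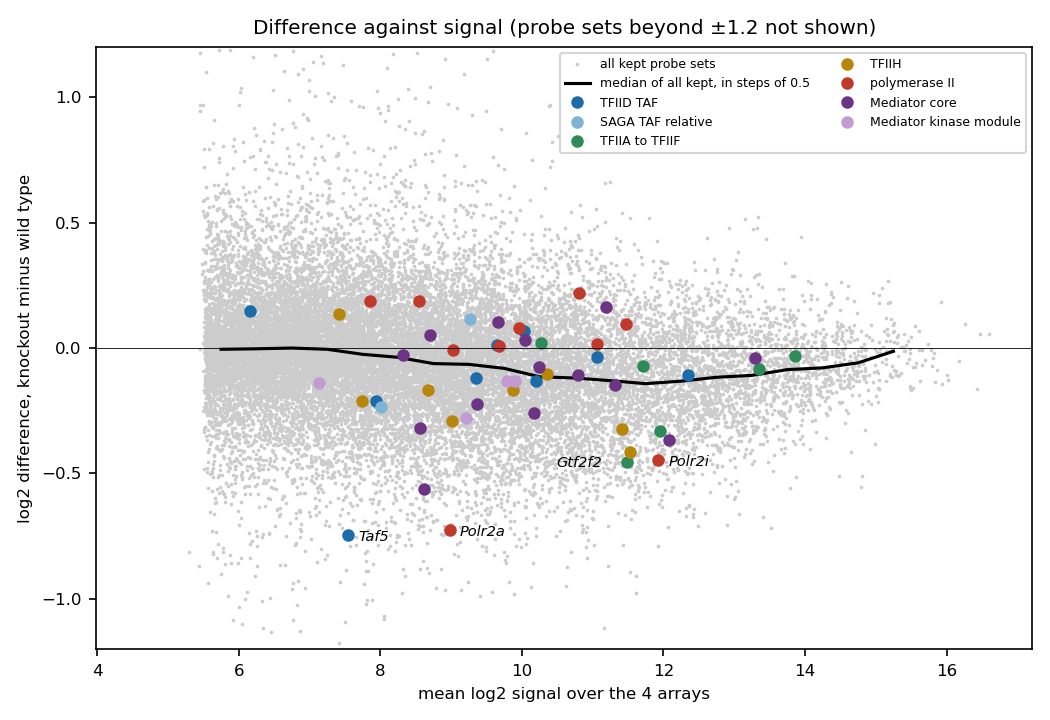
Log2 difference between knockout and wild type against mean log2 signal over the 4 arrays for all kept probe sets (grey; those beyond ±1.2 are not drawn) and the leading probe sets of members (coloured by role). The black line, the median of all kept probe sets in steps of signal, sinks below 0 among bright probe sets, and most members lie near it while Taf5 and Polr2a lie far below.

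Among the TFIID subunits, Taf5, a WD-repeat scaffold of the TFIID core, stood lowest. Its signal (probe set 1435474_at) was 253 and 232 in wild type and 152 and 138 in the knockout, so the groups were well apart. The mean went from 242 ± 14.9 to 145 ± 9.88 (SD, n = 2 each), a log2 difference of −0.74 (SE 0.105, 95% interval −1.01 to −0.48) that missed the limma threshold at an adjusted p = 0.0510. The difference was −0.74 after quantile normalization as well (adjusted p = 0.0564). Over the 13 alternatives that kept it, its limma adjusted p ran from 0.0260 to 0.353.

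The other TFIID members differed little. Taf1, the largest subunit and a direct partner of Taf7, had 285 and 246 in wild type and 223 and 234 in the knockout, lower without overlap but with an adjusted p = 0.302. Taf10, a histone-fold subunit shared with SAGA, had 5563 and 5252 against 4844 and 5191 at its leading probe set (−0.11). Its dimmer probe set had 213 and 231 against 175 and 170 (−0.36, adjusted p = 0.101). The histone-fold partners Taf11 and Taf13 had differences of 0.01 and −0.13, and Taf13 (1230 and 1233 against 1095 and 1156) did not overlap. Taf2, which contacts initiator DNA, had −0.04, Taf6 −0.12 and Taf12 0.07. Taf15, an RNA-binding protein of the FET family, ranged from 48.3 to 94.7 within the wild type, and its difference of 0.15 has an interval of −0.74 to 1.03. Of the 9 measured TFIID members 6 were lower and 3 higher, with a median of −0.11 that became 0.01 under quantile normalization.

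Taf5l and Taf6l take the places of Taf5 and Taf6 in SAGA, a histone-acetylating coactivator. Taf5l had 640 and 546 in wild type and 618 and 663 in the knockout, which overlap (0.11, 95% interval −0.16 to 0.39, adjusted p = 0.570). Taf6l had 258 and 303 against 239 and 235, lower without overlap (−0.24, adjusted p = 0.267).

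Gtf2f2 was the called member among the factors from TFIIA to TFIIF. Its signal (probe set 1426626_at) was 3379 and 3370 in wild type against 2385 and 2537 in the knockout. The mean fell from 3374 ± 5.95 to 2461 ± 107 (SD, n = 2 each), 1.37-fold lower (log2 −0.46, SE 0.063, limma adjusted p = 0.0496). Its partner in TFIIF, Gtf2f1, had 3590 and 3320 against 3356 and 3224 at the leading probe set, which overlap (−0.07), and 3164 and 3138 against 2326 and 2825 at the other (−0.30, adjusted p = 0.166). Gtf2b, the TFIIB factor that bridges TFIID and the polymerase, had 4546 and 4359 against 3724 and 3358, lower on both knockout arrays (−0.33, SE 0.074, adjusted p = 0.0773; −0.19 with an adjusted p = 0.270 under quantile normalization). The TFIIE genes Gtf2e1 and Gtf2e2 had differences of 0.02 and −0.09, and the small TFIIA subunit gene Gtf2a2 had −0.03. Of these 6 members 5 were lower, with a median of −0.08 that became 0.03 under quantile normalization.

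All 8 measured TFIIH members had signals that did not overlap, 7 lower and 1 higher in the knockout. Of all kept probe sets 55.0% did not overlap, 36.3% lower and 18.7% higher. None of the 8 members passed the limma test (2 had an unadjusted p under 0.05, against 24.7% of all kept probe sets). Gtf2h1, a subunit of the TFIIH core, had 3239 and 3556 in wild type and 2518 and 2577 in the knockout (−0.41, SE 0.071, adjusted p = 0.0576). Ccnh, the cyclin of the Cdk7 kinase, had 3219 and 2867 against 2448 and 2416 (−0.32, SE 0.077, adjusted p = 0.0872). A second Ccnh probe set gave 1606 and 1561 against 1273 and 1279 (−0.31, adjusted p = 0.0714), and the third, dimmest, gave 648 and 666 against 583 and 658, which overlap (−0.09). Under quantile normalization the leading probe sets of Gtf2h1 and Ccnh were at −0.27 (adjusted p = 0.104) and −0.18 (adjusted p = 0.258).

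The remaining TFIIH members differed less. The DNA translocase gene Ercc3 had 565 and 582 against 523 and 420 (−0.29, adjusted p = 0.233; −0.13 without knockout replicate 2 and −0.45 without knockout replicate 1), and the helicase gene Ercc2 had 218 and 241 against 186 and 212 (−0.21, adjusted p = 0.327). Gtf2h4 had 983 and 1015 against 903 and 876 (−0.17, adjusted p = 0.226), with −0.09 and −0.07 at its other kept probe sets. Cdk7, the kinase, had 1322 and 1384 against 1260 and 1257 (−0.10), whereas a dimmer Cdk7 probe set was higher in the knockout (124 and 128 against 150 and 136, 0.19). The kinase assembly factor gene Mnat1 had −0.17, and Gtf2h3 alone was higher at its leading probe set (0.14). The TFIIH median of −0.19 became −0.15 under quantile normalization, when 6 of 8 were lower and 6 of 8 did not overlap. Of all kept probe sets 50.9% were lower and 54.5% did not overlap under that scaling.

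Polymerase II subunits did not share a direction. Polr2i (probe set 1428494_a_at) had 4666 and 4377 in wild type against 3320 and 3315 in the knockout. The mean fell from 4522 ± 205 to 3317 ± 3.49 (SD, n = 2 each), 1.36-fold lower (log2 −0.45, SE 0.061, limma adjusted p = 0.0496). Polr2a, the largest subunit, which carries the catalytic centre and the phosphorylated tail, had 697 and 603 in wild type and 328 and 469 in the knockout at probe set 1426242_at. The knockout arrays were both lower but far apart, and the difference of −0.72 (SE 0.190, 95% interval −1.21 to −0.24) was not called (adjusted p = 0.0999). With knockout replicate 2 left out it was −0.98, and with knockout replicate 1 left out −0.47. The second Polr2a probe set had 180 and 157 against 165 and 178, which overlap (0.03), so the gene's probe sets disagreed.

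Other polymerase genes were higher in the knockout without passing the test. Polr2g, a subunit of the stalk, had 1708 and 1623 in wild type and 1935 and 1945 in the knockout (0.22, SE 0.065, adjusted p = 0.123). Its stalk partner Polr2d had 336 and 366 against 401 and 398 (0.19, adjusted p = 0.270). Both differences were larger under quantile normalization, at 0.34 and 0.23. Polr2b, the second catalytic subunit, had 2705 and 2775 against 2857 and 3002 (0.10, adjusted p = 0.404). Polr2e, Polr2f and Polr2h, shared by all nuclear RNA polymerases, had 0.01, 0.08 and 0.19, and in Polr2h a single knockout array was high (216 and 215 against 217 and 279). Polr2c and Polr2j, assembly partners, had 0.02 and −0.01. Of the 10 measured subunits 7 were higher and 3 lower, with a median of 0.05 as deposited and 0.16 after quantile normalization.

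**Figure D3:**
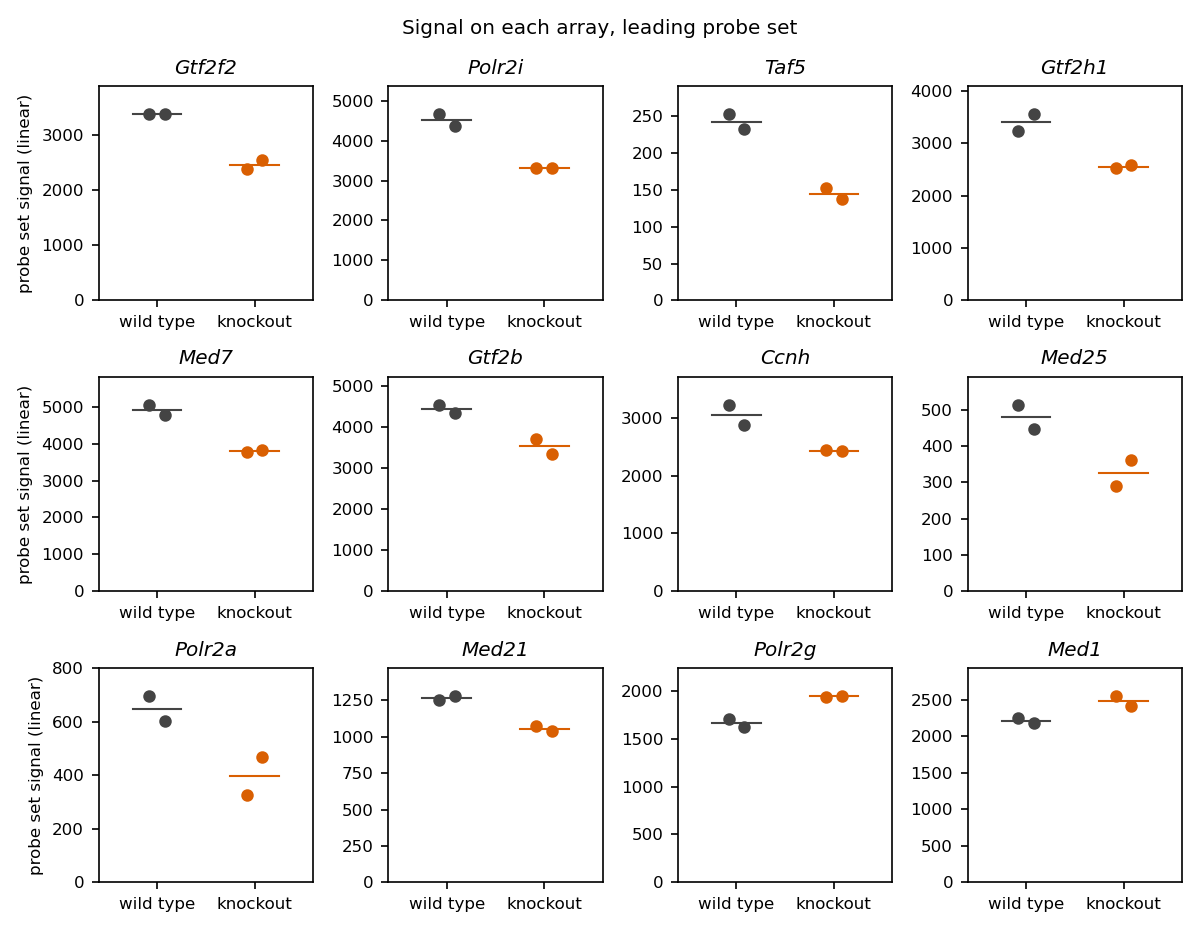
Linear signal of the leading probe set on each of the 4 arrays (points; bars are means of 2) for 12 members, with each vertical axis starting at 0. In 10 panels both knockout arrays are below both wild type arrays, as for Gtf2f2 (2385 and 2537 against 3379 and 3370), and in the panels for Polr2g and Med1 both are above.

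Of the 14 measured core Mediator subunits none was called (4 had an unadjusted p under 0.05, against 24.7% of all kept probe sets). The middle module held members with lower signals on both knockout arrays. Med7 had 5044 and 4764 in wild type and 3779 and 3831 in the knockout (−0.37, SE 0.059, adjusted p = 0.0543), and its binding partner Med21 had 1249 and 1279 against 1072 and 1039 (−0.26, SE 0.068, adjusted p = 0.0987). Neither overlapped. Under quantile normalization they were at −0.23 (adjusted p = 0.115) and −0.15 (adjusted p = 0.270). Also of the middle module, Med31 had −0.15, Med4 −0.08 and Med10 −0.04.

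Med1, the subunit of the middle module that binds nuclear receptors, went the other way. At its leading probe set Med1 was higher in the knockout without overlap. It had 2255 and 2177 in wild type and 2553 and 2412 in the knockout (0.16, SE 0.066, adjusted p = 0.210). Of its 6 kept probe sets 5 were higher (0.08 to 0.34) and 1 lower (−0.09), and none was called.

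In the tail and head of Mediator, Med25, a target of activators, had 513 and 447 in wild type and 290 and 362 in the knockout, below without overlap (−0.56, SE 0.141, adjusted p = 0.0923). Its second probe set had 192 and 168 against 185 and 149, which overlap (−0.11). Med27 had 458 and 387 against 352 and 323 (−0.32, adjusted p = 0.178), Med24 had 717 and 710 against 561 and 664 (−0.23, adjusted p = 0.263) and Med23 had −0.03. The head subunit genes Med6, Med8, Med17 and Med20 had 0.10, −0.11, 0.03 and 0.05. The core median of −0.09 became 0.01 under quantile normalization, when 6 of 14 were lower.

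The kinase module, which docks reversibly on Mediator, had 4 measured members, all with lower means in the knockout as deposited and after both other scalings, and none called. Ccnc, the cyclin, had 619 and 695 in wild type and 515 and 566 in the knockout (−0.28, SE 0.0996, adjusted p = 0.172). A second Ccnc probe set was lower too (−0.35), while its dimmer ones, with means of 74.2 and 63.5, had 0.05 and 0.01. Its kinase partner Cdk8 had 953 and 1061 against 951 and 888 (−0.13, adjusted p = 0.427), which are barely apart. The scaffold genes Med12 (142 and 154 against 143 and 126) and Med13 (963 and 894 against 778 and 922) overlapped, at −0.14 and −0.13. Under quantile normalization Cdk8 was at −0.02 and Med13 at −0.03, and the median of the module went from −0.14 to −0.08. As deposited 2 of the 4 did not overlap, against 55.0% of all kept probe sets. Under quantile normalization 1 of the 4 did not, against 54.5%. Without knockout replicate 1 Med13 was at −0.01, and without knockout replicate 2 Med12 was at −0.05.

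Probe sets of the same gene often disagreed in sign. Of 16 members with 2 or more kept probe sets, 6 were lower at all of them, 1 (Med6) was higher at all, and 9 had both signs. Among those, the range between probe sets was widest for Polr2a (0.76), Med1 (0.42), Ccnc (0.39) and Cdk7 (0.29). In the rest of those 9 it was at most 0.15, so their differences lay near 0. For 37 members a single probe set was kept, Gtf2f2, Polr2i, Taf5, Gtf2h1 and Med7 among them, so their values rest on that probe set.

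**Figure D4:**
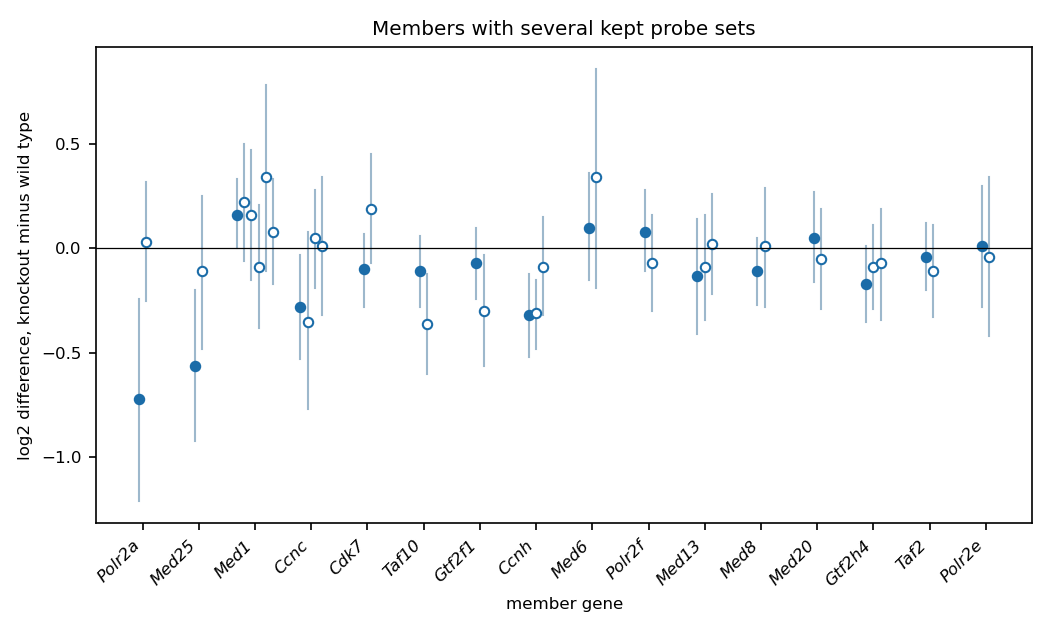
Log2 difference between knockout and wild type with limma 95% intervals for every kept probe set of the 16 members with several, ordered by the range between probe sets (filled, leading probe set; open, others). Polr2a has a leading value of −0.72 beside 0.03, and 9 genes have probe sets on both sides of 0.

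Other genes of the pathway, from lists written out by complex, gave 77 measured genes of 89 listed, with 55 lower, 22 higher and a median of −0.08. By limma 1 of them was called: the Mediator gene Med26, which couples Mediator to elongation factors, fell from 1346 ± 3.75 to 943 ± 34.2 (SD, n = 2 each; log2 −0.51, SE 0.070, adjusted p = 0.0492; −0.40 with an adjusted p = 0.0680 after quantile normalization, and 0.00791 to 0.353 over all 14 alternatives). That is 1 of 77, where 1.39% of all kept probe sets were called. The Mediator head gene Med18, named here after its values were seen, was farthest the other way, with 1468 and 1418 in wild type and 3031 and 2171 in the knockout (0.83, adjusted p = 0.0670), and was not called. The median was −0.11 for 13 SAGA partners, −0.12 for 14 further Mediator genes, −0.11 for 27 elongation factors, −0.03 for 10 genes of tail dephosphorylation and polymerase assembly, 0.03 for 4 polymerase I genes and −0.03 for 9 polymerase III genes. After quantile normalization, the median of the 77 was 0.00.

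The calls of Gtf2f2 and Polr2i lay at the edge of the threshold. Under quantile normalization their differences were −0.32 and −0.31 with limma adjusted p of 0.0677 and 0.0807. No member was called under that scaling (12 of 53 had an unadjusted p under 0.05, against 5117 of 22519 kept probe sets). With any single array left out limma called no probe set. Their adjusted p was then 0.353 for both without wild type replicate 1, 0.297 for both without wild type replicate 2, 0.152 for both without knockout replicate 1, and with knockout replicate 2 left out 0.0851 and 0.0880. Over all 14 alternatives the adjusted p of each ran from 0.00868, with the stricter filter, to 0.353. The differences themselves ranged from −0.50 to −0.41 for Gtf2f2 and from −0.49 to −0.40 for Polr2i over the 4 fits with an array left out. Over the same fits Taf5 ranged from −0.81 to −0.68, Gtf2h1 from −0.48 to −0.35 and Med7 from −0.41 to −0.32.

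**Figure D5:**
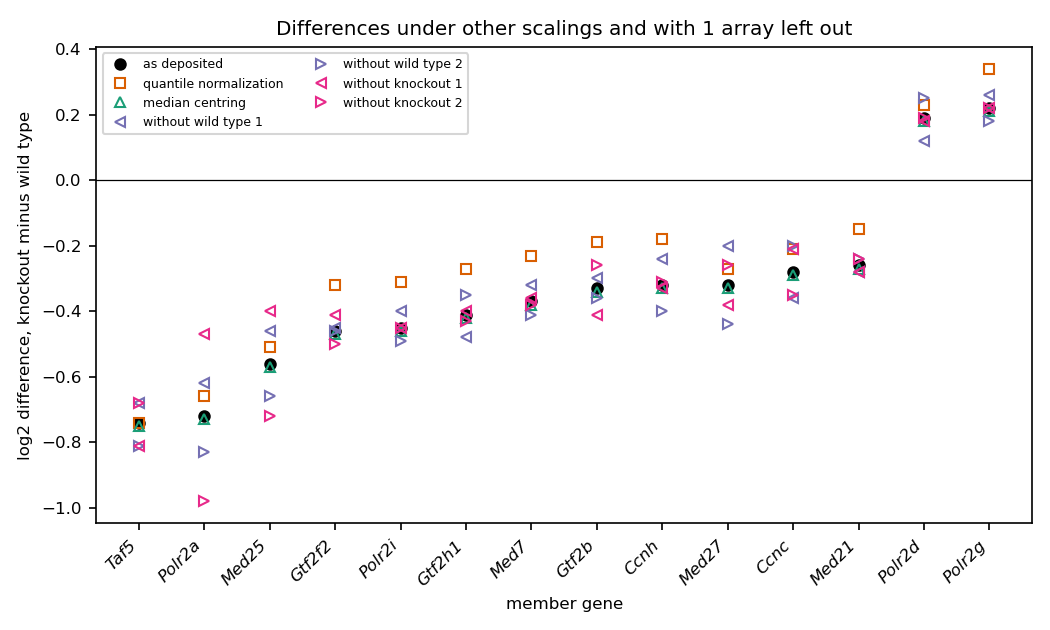
Log2 difference between knockout and wild type for 14 members as deposited, under 2 other scalings and with each array left out in turn. Quantile normalization shifts bright members upward, such as Gtf2f2 (−0.46 to −0.32) and Polr2g (0.22 to 0.34), and leaves Taf5 at −0.74, and Polr2a spreads from −0.98 to −0.47 with a knockout array left out.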

How the data were processed

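Testis RNA of 2 wild type and 2 Taf7l knockout mice was measured on Affymetrix arrays. The deposited values are linear intensities (probe set signals). The submitters' processing notes name MAS5, without version or scaling target. Detection calls, genome build and any further normalization are not given in the sources used here. The table holds 45037 mouse probe sets and 64 controls. Of the mouse probe sets, 34945 have 1 gene symbol in the platform annotation, 932 several and 9160 none, and symbols were updated through RefSeq (GRCm38.p6) for 34741.

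The log2 of the signal was used, with an offset of 0. Probe sets with a mean signal of at least 45.8, the median, were kept (22519). Genotype was the only term in limma 3.58.1 (R 4.3.3; lmFit, eBayes with a variance trend), two-sided, with Benjamini-Hochberg adjustment over all kept probe sets and a threshold of 0.05. There were 2 residual and 3.17 prior degrees of freedom. With 2 arrays a group, the smallest p of an exact permutation test is 0.333. The number of arrays limits the precision.

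Members and lists were chosen with earlier results of these data known. Called members and, in each role group, the 4 with the smallest p were chosen for fuller statistics. Some of these are given by signals or the difference only. Signals of different probe sets are not compared in level, because probe sets differ in sensitivity. Alternatives covered scaling, offset, filter, variance model, replicate block, probe set summary and each array left out.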

Additional observations from a re-analysis of the deposited data

How the results depend on the processing

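As deposited, limma called 312 probe sets (100 higher, 32.1%) and 2 of 53 members. Quantile normalization gave 148 (61.5% higher) and 0 members, with a member median of 0.00. Median centring gave 646 (22.8% higher) and 4 members. The 75th percentile filter, which tests fewer probe sets, gave 2375 (21.1% of those tested) and 9 of 45 members, and no filter gave 0 and 0 (6192 probe sets and 14 members at an unadjusted p under 0.05). Without the variance trend there were 36 calls and 0 members (5187 probe sets and 13 members at an unadjusted p under 0.05). With the robust prior there were 217 and 0 members (5491 probe sets and 13 members). The fits with 1 value per gene tested fewer features. With 1 probe set per gene there were 806 calls (6.58% of those tested) and 5 of 53 members. With the mean of probe sets there were 965 (7.88%) and 5 of 53 members, with a median of −0.09. Leaving out any array gave 0 calls and 0 members by limma, when 3084 to 5500 probe sets and 7 to 15 members had an unadjusted p under 0.05, and the spread then comes from the group that still has 2 arrays. The offset changed no call of a member. The cause of these shifts was not tested. Of 26 members chosen for fuller statistics, Gtf2e2 (0.00), Gtf2f1 (0.06) and Taf10 (0.01) turned under quantile normalization. Taf5l ranged from 0.00 to 0.23 with arrays left out, 0.00 without wild type replicate 2.

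With the replicate number as a block, 541 probe sets and 3 members were called, Taf5 besides Gtf2f2 and Polr2i. The labels do not say that numbers mark litters, and the within-genotype differences between replicates 1 and 2 had a correlation of 0.03 over kept probe sets. The SD of the log2 difference between arrays of a genotype, 0.175 for wild type and 0.173 for knockout over the members, limits what 2 arrays a group can show.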
